A study of Mus musculus with 5 samples.

Results

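The loci of 9 Hedgehog pathway genes were examined for binding of the transcription factors Hand1 and Foxf1 in differentiating mouse cells. The genes were the receptor Ptch1, the transducer Smo, the co-receptors Gas1, Boc and Cdon, the mediators Gli1, Gli2 and Gli3, and the feedback gene Hhip. A peak was assigned to a gene when its summit, the position of highest signal, lay in the gene or within 100 kb of either end. By this rule 9 of the 6837 deposited peaks lay at these genes: 3 of the 1134 Hand1 peaks and 6 of the 5703 Foxf1 peaks. Each such peak is called a site below. Every listed summit counts as a peak here, and several summits can share a region. The lists hold 991 distinct Hand1 regions and 5610 distinct Foxf1 regions. A summit can lie in the windows of several genes, so a site in a window is not thereby tied to the gene.

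Binding was mapped by chromatin immunoprecipitation with sequencing (ChIP-seq), using an antibody to the HA tag, a short peptide fused to the factor. The cells were derived from E14, a mouse embryonic stem cell line, through embryoid bodies (48 h) and re-aggregation for 40 h with VEGF, Activin A and BMP4 (the stage labelled MES). The stage labelled CP followed after another 32 h as a monolayer with VEGF, basic FGF and FGF10. Hand1-HA was a knock-in line precipitated at MES (1 library), whereas Foxf1-HA was an inducible overexpression line precipitated at CP (2 libraries), with 1 input library per stage. The Foxf1 list was deposited with replicate 1. The sources used here do not say if the authors pooled both Foxf1 libraries for it, so its folds and fragment numbers may describe 1 library or 2. The factors thus also differ in stage and in how the tagged protein was produced, and these cannot be told apart, the level of induced Foxf1 is not given, and neither is the number of clones behind each line. Peak lists hold no expression values, so the labelled stages could not be checked against marker genes.

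In Hedgehog signalling, a secreted ligand binds Patched, which relieves the inhibition of Smoothened and lets Gli transcription factors act on their targets. Gas1, Boc and Cdon help the receptor take up ligand, while Ptch1 and Hhip are themselves induced by the pathway and restrain it by holding ligand back. In the embryo, the pathway acts in the mesoderm that forms the heart and the gut wall, where Foxf1 is known as a Hedgehog-responsive gene.

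The site closest to a transcription start was a Foxf1 site at Gli2, the main transcriptional activator of the pathway. It lay on chromosome 1 (119053041 to 119053916), and its summit at 119053728 was 109 bp upstream of the Gli2 start in RefSeq. The peak covered all 250 bases before that start, which are shown because a member's promoter carried a summit in this case alone. The Gli2 gene in RefSeq extends past that start, to 119054405. By the gene span the summit thus lay inside Gli2, 0.677 kb from this end, and upstream refers to the start used here alone. The bases are from RefSeq, build GRCm38.p6, chr1:119053620-119053869, minus strand, written 5′ to 3′ towards the start, with the summit and the 10 bases on either side of it in capitals:
Gli2: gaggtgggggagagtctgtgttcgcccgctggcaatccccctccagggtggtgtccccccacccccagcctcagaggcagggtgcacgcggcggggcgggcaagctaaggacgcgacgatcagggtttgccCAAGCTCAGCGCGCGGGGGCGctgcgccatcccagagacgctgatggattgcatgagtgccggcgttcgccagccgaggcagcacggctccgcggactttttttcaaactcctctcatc
Of these bases 67.2% were G or C, and they held 22 CpG dinucleotides.

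RefSeq promoter windows, which run from 250 bases before to 50 after a start, were given for 7 of the 9 genes (not for Gli1 and Boc). A Foxf1 peak touched the window of 1 of the 7, Gli2, against 5.33% of the 17492 protein-coding genes with a window. A Hand1 peak touched none of the 7, against 0.600% of these genes. Of all Foxf1 summits on chromosomes in the promoter table, 12.1% lay in a window, as did 1 of the 6 at Hedgehog genes.

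Letters known from textbook binding sites were searched on both strands of the promoter windows. Neither forkhead form, TGTTTAC or TGTTTGC, occurred in any of the 7 windows, against 8.48% of all 32851 windows and 7.95% of the 1031 windows of protein-coding genes under a Foxf1 peak. An E-box (CANNTG), the kind of site bound by Hand1 and its partners, occurred only in the Gli3 window among the 7, as CATCTG starting 116 bases before the start. Any E-box occurred in 72.3% of all windows, and CATCTG or its reverse complement CAGATG, which are themselves E-boxes, in 17.2%. The GATA letters AGATAA (11.2% of all windows) and the GLI letters TGGGTGGTC (0.253%) were found in none of the 7. The G and C content of the 7 windows ran from 44.7% for Cdon to 76.3% for Ptch1, with 67.3% for the whole Gli2 window, against a median of 52.7% over all windows.

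Foxf1 sites lay at 4 of the 9 genes, Gli1 (3 sites), Gli2, Gas1 and Smo (1 each). Over all 21887 protein-coding genes, 53.3% had a Foxf1 site within 100 kb. Hand1 sites lay at 2 genes, Gli2 (2 sites) and Gli1 (1 site), and both also had a Foxf1 site. The shares over all protein-coding genes were 9.90% for a Hand1 site and 7.65% for a site of both lists. Within 100 kb the share for Foxf1 was near that of all genes. This nearness does not extend to 10 kb or to sites per Mb, both given below. Shares of so few genes are imprecise, and the Hand1 share rests on 2 genes. Both genes with a site of each list encode Gli mediators. At other distances the Foxf1 counts were 4 genes within 10 kb (22.7% of all protein-coding genes), 4 within 50 kb (41.7%) and 6 within 200 kb (65.9%), where Ptch1 and Boc were added. The Hand1 counts were 1 gene within 10 kb (2.80%), 2 within 50 kb (6.06%) and 2 within 200 kb (16.6%). The remaining 5 genes at 100 kb, Ptch1, Boc, Cdon, Gli3 and Hhip, had no site of either list. They are the same 5 that lacked a Foxf1 site, which 53.3% of all protein-coding genes had, so this count too is near that of all genes.

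**Figure D1:**
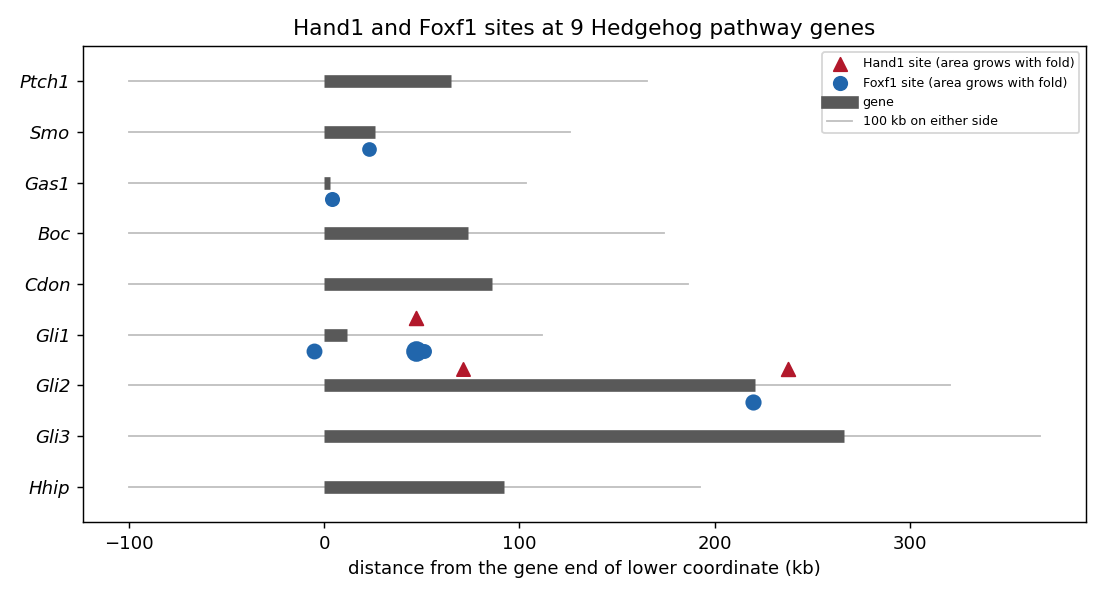
Positions of Hand1 sites (triangles above the line) and Foxf1 sites (circles below the line) at the 9 genes, in kb from the gene end of lower coordinate, with the gene as a thick bar and 100 kb on either side as a thin line. The Gli1 window, with 9 other protein-coding genes, holds 3 Foxf1 sites and 1 Hand1 site, none with Gli1 as its nearest gene. The Gli2 window holds 1 Foxf1 site and 2 Hand1 sites, and 5 genes have none. Of all protein-coding genes, 53.3% have a Foxf1 site within 100 kb and 9.90% a Hand1 site.

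Among the receptor-side genes, Smo encodes the membrane protein that passes the signal on. Its Foxf1 site lay inside the gene on chromosome 6 (29758407 to 29758892), 2.67 kb from the gene end away from the start and 23196 bp downstream of the start. The RefSeq start nearest to the summit was that of another gene, Ahcyl2, 9750 bp away. The authors' fold enrichment at the summit, a linear ratio over the peak caller's control level, was 5.84. An estimated 29 fragments covered the summit (95% exact Poisson interval 19.4 to 41.6, counting error only) over a control level of 4.14 fragments. This was the weakest of the 6 Foxf1 sites by fold, at rank 5179 of 5703. Control levels of Foxf1 peaks had a median of 3.71 on chromosome 6 and of 4.14 on chromosome 8, which holds Hhip, where the medians of the remaining autosomes were 2.68 to 2.92. For Hand1 peaks the medians were 2.68 on chromosome 6 and 7.14 on chromosome 8, where the remaining autosomes had 1.41 to 1.98. Smo and Hhip had no Hand1 site. The part of the control level in these results was not tested.

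Gas1 encodes a membrane-anchored co-receptor that promotes signalling. Its Foxf1 site lay on chromosome 13 (60178476 to 60178848), 1126 bp upstream of the Gas1 start, with no other protein-coding gene within 100 kb of Gas1. The fold was 6.24 (rank 4777), with 25 fragments (interval 16.2 to 36.9) over a control level of 3.16. The nearest Hand1 site was 444 kb from the gene.

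Ptch1, both the receptor and a target of the pathway, had no site within 100 kb. The nearest Foxf1 site was 172 kb away, inside Fancc (chromosome 13, 63335778 to 63336354, fold 7.79, 19 fragments), and the nearest Hand1 site was 785 kb away. For the co-receptor Boc the nearest Foxf1 site, inside Spice1 on chromosome 16 (44347406 to 44347911, fold 9.73, 49 fragments), was 137 kb away. It was the nearest site outside the 100 kb limit at any of the 9 genes, while the farthest site inside the limit lay 39.5 kb from Gli1. For the co-receptor Cdon the nearest Foxf1 site was 222 kb away. The nearest Hand1 sites of Boc and Cdon were 4274 kb and 2695 kb away. A gene without a site is one at which no peak passed the limit of the list. The lists began at a −log10 q-value of 5.01 (Hand1) and 10.0 (Foxf1), and their weakest summits held 13 and 18 fragments, so weaker binding at these genes could not be detected.

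Among the mediators, Gli1 is an activator whose own transcription is a common readout of the pathway. It was the only one of the 9 genes with more than 1 Foxf1 site, on chromosome 10. The first Foxf1 site (127324559 to 127324832) lay 5.18 kb from Gli1, inside the neighbouring gene Arhgap9, with a fold of 7.27 and 22 fragments (interval 13.8 to 33.3). The second (127376736 to 127377180) lay 35.4 kb from Gli1 and 3.33 kb from R3hdm2, with a fold of 14.1 and 43 fragments (interval 31.1 to 57.9). The third (127380982 to 127381644) lay inside R3hdm2, 460 bp from its RefSeq start and 39.5 kb from Gli1, with a fold of 6.11 and 26 fragments (interval 17.0 to 38.1). For all 3 sites a gene other than Gli1 was nearest, and 2 protein-coding genes, Inhbe and Inhbc, lie between Gli1 and the sites near R3hdm2.

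The second of these was the strongest of the 6 Foxf1 sites, at rank 223 of 5703 by fold. It was also the single place at these genes where both factors had a peak. The Hand1 peak there (127376744 to 127377336) had a fold of 6.75 and 15 fragments (interval 8.40 to 24.7). The 2 peaks shared 437 bp, which is 73.7% of the Hand1 peak and 98.2% of the Foxf1 peak, and their summits lay 26 bp apart. Control levels at the pair were low, at 1.37 for Hand1 and 2.12 for Foxf1, where 6.26 and 7.83 were the limits for a high level. Over all named chromosomes 17.3% of Hand1 peaks and 3.14% of Foxf1 peaks overlapped a peak of the other list, as did 1 of the 3 and 1 of the 6 here. The folds come from separate lists with different controls and were not compared between factors.

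Gli2 carried sites of both lists in a window with no other protein-coding gene. Its promoter Foxf1 site had a fold of 7.62, close to the median of the list (rank 2848), with 40 fragments (interval 28.6 to 54.5) over a control level of 4.38. One Hand1 site (119071178 to 119071648) lay outside the gene, 17854 bp upstream of the RefSeq start, with a fold of 6.66 and 14 fragments (interval 7.65 to 23.5). The other Hand1 site (118904977 to 118905408) lay inside the gene, 71.2 kb from the nearer gene end, with a fold of 6.16 and 13 fragments (interval 6.92 to 22.2), the fewest of any Hand1 peak. The Hand1 summits were 17.7 kb and 149 kb from the Foxf1 summit, so the factors had separate sites at this gene. The gene table gives no exons, so exonic and intronic positions were not told apart.

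Gli3, which mainly acts as a repressor when ligand is absent, had the longest gene of the 9 (266 kb) and no site. Its nearest Foxf1 site was 282 kb and its nearest Hand1 site 1603 kb away. Hhip, which encodes a membrane protein that binds and sequesters the ligand, had the most distant Foxf1 site of the 9, 671 kb from the gene on chromosome 8, and its nearest Hand1 site was 3157 kb away. Of the 3 genes known for feedback, Ptch1, Gli1 and Hhip, only Gli1 had a site, and none of its sites had Gli1 as the nearest gene.

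**Figure D2:**
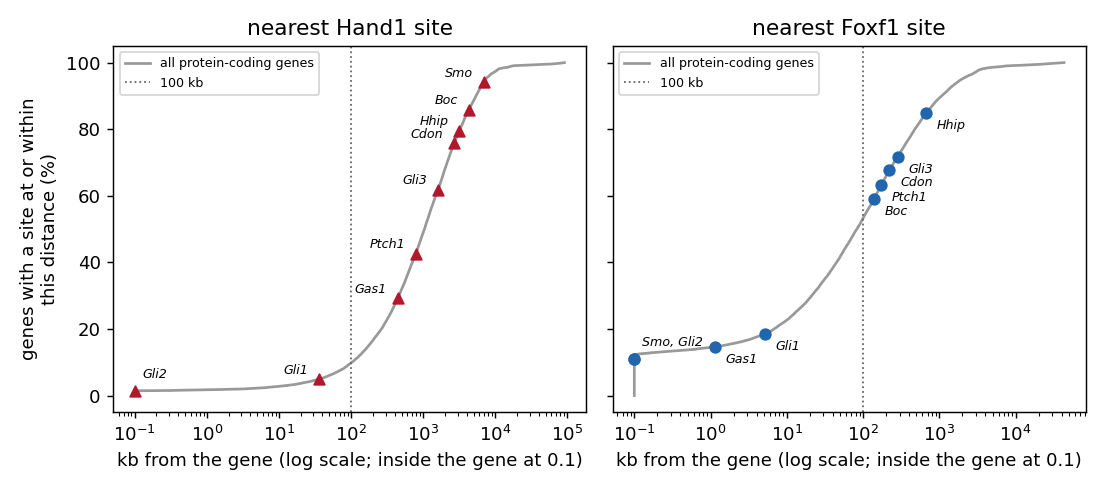
Distance from each protein-coding gene to its nearest Hand1 site (left) and Foxf1 site (right), as the percentage of genes with a site at or within that distance (grey line; log axis, distances under 0.1 kb drawn at 0.1). The 9 genes are marked, a site of each list lies inside Gli2, and the dotted line stands at 100 kb.

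The median distance to the nearest Foxf1 site was 137 kb for the 9 genes and 82.7 kb for all protein-coding genes. For Hand1 the medians were 1603 kb and 1040 kb. Per Mb of window there were 2.27 Foxf1 sites at the 9 genes and 5.02 over all protein-coding genes, where overlapping windows count a site several times. For Hand1 both values were 1.13 per Mb. The windows of the 9 genes held a median of 1 other protein-coding gene, against 4 over all genes, and the part of this in the result was not tested. Gli1, with the most sites, also had the most neighbours (9).

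Sites whose nearest protein-coding gene was the member itself numbered 2 of 3 for Hand1, both at Gli2, and 3 of 6 for Foxf1, at Gli2, Gas1 and Smo. A nearest Foxf1 site by this rule was thus found for 3 of the 9 genes, against 19.6% of all protein-coding genes, and a nearest Hand1 site for 1 of 9 against 2.97%. The 3 Hand1 sites lay 1081 kb or more from the nearest transfer RNA gene. This distance was not taken over the whole Hand1 list, so it does not set these sites apart.

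All 3 Hand1 sites had folds below the median of their list (6.16 to 6.75 against 7.92), and they held 13 to 15 fragments against a median of 26. Of the 6 Foxf1 sites 4 lay below the median of the list, 7.62, the Gli2 promoter site lay at it, and the site near R3hdm2 shared with Hand1 lay above it. The median log2 fold of the 6 minus that of all Foxf1 sites on named chromosomes was -0.18. Control levels ran from 1.25 to 1.37 for Hand1 and from 2.12 to 4.38 for Foxf1, and none of the 9 sites had a high control level. Such levels were rare in the whole lists too, at 11.7% of Hand1 peaks and 3.65% of Foxf1 peaks. There was 1 list per factor, so none of these values has a replicate error and no test was made.

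**Figure D3:**
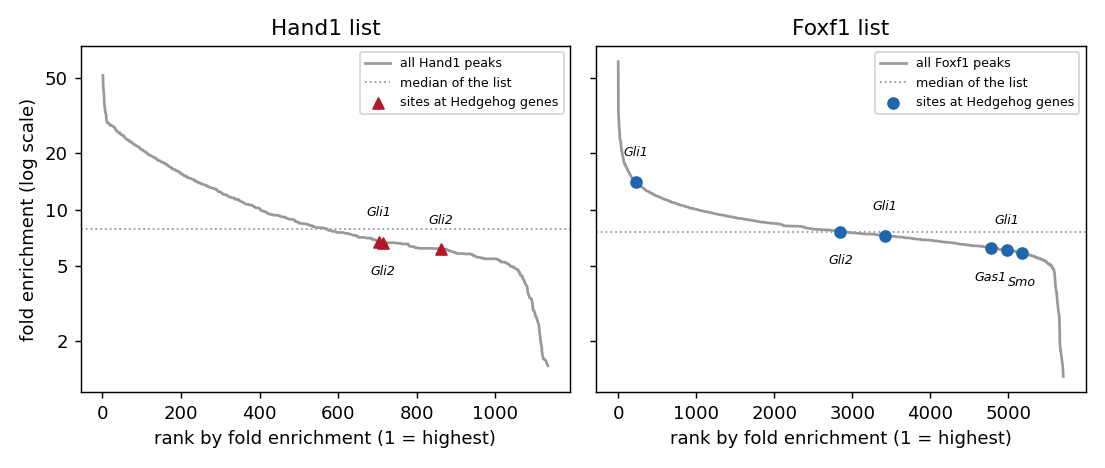
Fold enrichment (log axis) against rank within the Hand1 list (left) and the Foxf1 list (right), with all peaks as a grey line, the list median dotted and the sites at Hedgehog genes marked by gene. The sites lie at or below the median apart from 1 Foxf1 site near Gli1, with a fold of 14.1.

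The rest of the pathway was taken from 3 lists of 35 further genes. Foxf1 sites lay within 100 kb of 26 of them (the share over all protein-coding genes was 53.3%), and Hand1 sites within 100 kb of 1 (9.90% over all protein-coding genes). Among 6 genes of the ligands and their release, 4 had a Foxf1 site and none a Hand1 site. Shh, a ligand gene, had 1 Foxf1 site 5.46 kb away (fold 9.74). Ihh, another, had 5, of which 1 lay inside it (fold 6.33) and the rest had a different nearest gene. These were the 2 genes of the 6 that were nearest to a Foxf1 site, against 19.6% of all protein-coding genes.

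Among 18 other genes of reception and transduction, 12 had a Foxf1 site and 1, Kif7, a Hand1 site as well. These counts are close to the shares over all protein-coding genes, 53.3% for Foxf1, 9.90% for Hand1 and 7.65% for both. Kif7 encodes a kinesin of the primary cilium that regulates Gli proteins. It had 2 Hand1 summits of the same region, 81.6 kb and 82.0 kb away (folds 19.2 and 9.87). Their nearest gene was Mesp1, a mesoderm regulator. Kif7 also had 5 Foxf1 sites, of which 1 lay inside Kif7 (fold 9.84). No Hand1 site had a gene of these lists as its nearest gene. The most Foxf1 sites were at Prkaca, the catalytic subunit of protein kinase A, with 11 in a window of 9 other genes on chromosome 8, none of them nearest to Prkaca. Spop, an adaptor for Gli degradation, had 6, none nearest to it. Sufu, the inhibitor that holds Gli proteins in the cytoplasm, also had 6. Of these 2 had Sufu as the nearest gene. The first lay 113 bp upstream of the Sufu RefSeq start, with its summit in the promoter window (chromosome 19, 46396621 to 46397687, fold 5.89). The second lay inside the gene, 38885 bp downstream of that start (46435498 to 46436325, fold 16.7).

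Among 11 genes known as Hedgehog targets in mesoderm or other tissues, 10 had a Foxf1 site and none a Hand1 site (53.3% and 9.90% over all protein-coding genes). For 8 of the 11 the gene was nearest to at least 1 Foxf1 site, against 19.6% over all protein-coding genes. The windows of the 11 held 0 to 4 other protein-coding genes each, against a median of 4 over all genes. The part of this in the nearest-gene count was not tested. The 24 sites counted gene by gene were 18 distinct ones, since the neighbours Foxf1, Foxc2 and Foxl1 shared the same 3. Of the known targets among the 9 genes, Gli1 had 3 Foxf1 sites within 100 kb and Ptch1 and Hhip had none, so the count of 10 depends on which genes are placed in the list. The lists were chosen with earlier results of these data known, and the counts are descriptions.

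**Figure D4:**
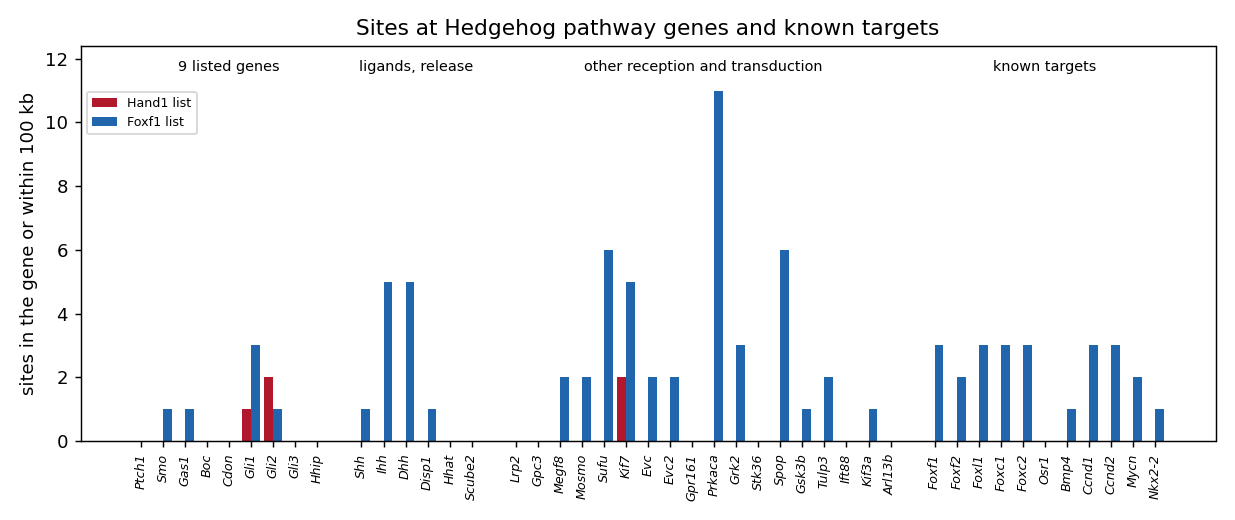
Number of Hand1 (red) and Foxf1 (blue) sites in each gene or within 100 kb, for the 9 genes and the 3 further lists. Hand1 sites occur at 3 genes in all, Gli1, Gli2 and Kif7, and Foxf1 counts run from 0 to 11.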

How the data were processed

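ChIP-seq peak lists of 1 Hand1-HA and 1 Foxf1-HA sample were analysed. Per the submitters' processing notes, the tools were Trim Galore 0.6.6, Bowtie2 2.3.4.3, SAMtools 1.9, deepTools 3.5.0 and MACS2 2.2.7.1, and the build was mm10 (GRCm38). Settings, control and pooling are not given in the sources used here. The deposited values are a fold enrichment (a linear ratio), a −log10 p-value, a −log10 q-value and a score of 10 times the −log10 p-value, all of the authors' making. Depth is not given. The fragments k and control level λ at each summit were solved from fold = (k + 1)/(λ + 1) and the Poisson p-value of more than k fragments. The whole k that fitted best was taken among the higher solutions only. A lower k, with a lower control level, that might also fit was left out by this choice. The deposited −log10 p-value was met within 0.001 for 1134 Hand1 and 5695 Foxf1 peaks. Control levels were called high from 5 times the list's lowest value upwards.

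Gene positions are from RefSeq on GRCm38.p6, and all 9 and 35 symbols matched; 1 further planned gene is not reported here. Only named chromosomes entered gene counts. All 9 genes are described with every site; of the further genes, those named have sites in both lists or rank among the 3 with most Foxf1 sites. Shh, Ihh, Foxf1, Foxc2 and Foxl1 were named after their values were seen. Overlap meant at least 1 bp. Members and lists were chosen with earlier results of these data known. With 1 list per factor no test was made. Python 3.11.15, numpy 2.4.6, pandas 2.3.3 and scipy 1.17.1 were used, and the solving and window steps were tested on simulated data.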

Additional observations from a re-analysis of the deposited data

How the results depend on the processing

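Counts at 9 genes are small, and 1 site can change them. Of 102 alternatives to 9 summary values, 73 stayed within 1.5 times the count (for the fold difference, within the range of the 6 sites) and 29 moved. Sites per gene are the site counts divided by 9, so each pair moved together. The fold difference counted as staying at every setting, also where its sign changed, because the range of the 6 sites is wide. The count of 73 is therefore not a measure of stability. Neither a −log10 q-value of at least 5 nor any base of the peak in place of the summit changed a count, and the former removed no peak. Counting the summits of a shared region once also left the counts at these genes the same. When the −log10 q-value had to reach 10, the Hand1 sites, genes with a Hand1 site, genes with both, overlapping sites and sites per gene (0.333 in the main count) all fell to 0, while 5.78% of all protein-coding genes, in place of 9.90%, had a Hand1 site. The same 5 values fell to 0 at a fold of at least 8, where Foxf1 kept 1 site at 1 gene (0.111 per gene), and over all protein-coding genes the shares fell to 4.74% for Hand1 and from 53.3% to 33.9% for Foxf1. Lists of equal length left 1 Foxf1 site at 1 gene (0.111 per gene; 19.7% of all protein-coding genes) and 1 gene with both. Within 10 kb there was 1 Hand1 site at 1 gene (0.111 per gene), 1 gene with both and 0 overlapping sites. Within 200 kb there were 15 Foxf1 sites (1.67 per gene), 9 more than within 100 kb, of which 7 were at Gli1. With the member as nearest gene there was 1 gene with a Hand1 site, 1 with both, 0 overlapping sites and 3 Foxf1 sites (0.333 per gene). The median log2 fold difference of the Foxf1 sites, -0.18, was 0.55 at a fold of at least 8 and 0.30 in lists of equal length, each resting on 1 site. Depth is not given, and summits of 13 to 15 fragments leave the Hand1 folds imprecise. No paired analysis was possible because each factor had a single list, and for the same reason no replicate could be left out.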
